A study of Mus musculus with 8 samples.

Results

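Transcripts of 6 nuclear genes for mitochondrial membrane transport were followed read by read: the inner-membrane carriers Slc25a3, Slc25a4 and Slc25a5, and the outer-membrane channels Vdac1, Vdac2 and Vdac3. Reads were taken where the gene symbol equalled one of these names, and all 6 were found among 13120 genes with reads, with 4848 of the 1926118 mRNA reads kept. The samples were wild-type (WT) mouse P19 embryonal carcinoma cells, a single pluripotent line, held undifferentiated and treated either with MHY1485 (MHY), an activator of the mTOR kinase, at 10 µM or with its solvent DMSO, for 24 h or 48 h. Poly(A) RNA was read directly on nanopores, so that each read reports 1 mRNA molecule and the length of its poly(A) tail in nucleotides (nt). There were 8 libraries in 4 groups of 2 biological replicates, and libraries are named by the numbers of the deposited table (21 and 23 at 24 h, 24 and 25 at 48 h), which are names and not times.

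SLC25 carriers are helical transporters of the mitochondrial inner membrane. Slc25a3 brings phosphate into the matrix, and Slc25a4 (ANT1) and Slc25a5 (ANT2) exchange matrix ATP for cytosolic ADP, so that together they supply and unload ATP synthase. Slc25a4 is best known from heart and skeletal muscle, and Slc25a5 from dividing cells. VDACs are beta-barrel pores through which ATP, ADP, phosphate and other metabolites cross the outer membrane, and they are docking sites for hexokinases and for Bcl-2 family proteins. All 6 proteins are made in the cytosol and imported. Poly(A) tails are added to mRNA in the nucleus and shorten in the cytoplasm, and their removal commonly precedes decay.

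The last 30 bases before each frequent 3′ end of the members are shown because the tail is added there, and because several members did not end where their annotation ends. An end was counted as a site when at least 5% of the reads of the gene's most-read transcript ended within 20 nt of it. The bases were taken from GENCODE vM21 transcripts (mouse assembly mm10) and are given 5′ to 3′ on the gene's strand. Capitals mark the polyadenylation signal AATAAA nearest the end.
Slc25a3: ttaatgctaAATAAAcccatctattcctga
Slc25a4 distal: gtgactcattAATAAAgactactcaataca
Slc25a4 middle: ccagaccgtaaggaatacctcagaaaaaaa
Slc25a4 proximal: agactattcttgaggaAATAAAacaaaaaa
Slc25a5: aaattgaagaAATAAAaatacccaaaacca
Vdac1: ataaaacttgAATAAAatactgaaacctca
Vdac2 proximal: aatgatgaaatagacgtttatgaaaaccgt
Vdac2 middle: acaaattatgAATAAAacaagtgtacataa
Vdac2 distal: tacAATAAAatacaaggatacatactttaa
Vdac3: taaAATAAAcccatcacatttggaacacaa

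Slc25a5 (chrX:36798778-36798807, + strand), Vdac1 (chr11:52389368-52389397, +) and Vdac3 (chr8:22577086-22577115, -) ended within 20 nt of the annotated last base of their most-read transcripts in 97.7%, 96.2% and 95.7% of reads. Slc25a3 (chr10:91116791-91116820, -) ended 217 nt before the annotated last base of its most-read transcript in 96.4% of reads. Vdac2 used 3 ends, the proximal one (chr14:21845489-21845518, +) in 64.4% of reads, the middle one (chr14:21845668-21845697, +) in 22.9% and the annotated distal one (chr14:21845850-21845879, +) in 11.5%. Slc25a4 also used 3 ends, all upstream of the annotated last base. The distal of these (chr8:46207173-46207202, -), 376 nt upstream, took 58.6% of reads, the middle one (chr8:46207339-46207368, -) 15.2% and the proximal one (chr8:46207391-46207420, -) 15.5%. The middle and proximal Slc25a4 windows finish in runs of A, where the last aligned base cannot be separated from the first base of the tail. AATAAA was searched on the transcript strand and lay in 8 of the 10 windows, and neither AATAAA nor ATTAAA was in the Vdac2 proximal and the Slc25a4 middle windows. In windows of the same length before the most frequent end of 2158 transcripts with at least 100 reads, 68.6% held AATAAA, 16.6% held ATTAAA and 17.1% held neither.

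Over the whole series, libraries held 178369 to 316546 reads, and the median tail of all mRNA reads lay between 92.4 and 102.5 nt, lowest in MHY 48 h library 24. Reads also carried a batch name, called a run here, with 3 values at 24 h and 2 at 48 h. The labels do not say what this name stands for. Every run held both treatments, while no run held both times, so that time and run cannot be told apart. Replicates differed by more than counting noise, with chi-square per degree of freedom from 1.19 to 1.56. Of 8 markers of pluripotent P19 cells 7 had reads, led by Pou5f1 at 2375 to 2907 RPM (reads per 1000000 mRNA reads of the library) and Utf1 at 294 to 472, and Zfp42 was at 0. The lowest of those with reads was Nanog at 25.7 to 79.4. Among markers of other lineages, Stmn2 of neurons stood at 173 to 336 RPM, Tubb3 of neurons at 26.2 to 67.3 and Sparc of endoderm at 183 to 258. Map2 and Snap25 of neurons had 6 and 3 reads in all, and Gata4 and Gata6 of endoderm 1 and 3. Actc1, Myh6 and Myod1 of muscle had 5, 3 and 1. Dcx, Neurog1, Sox17, Afp, Myh7 and Tnnt2 had no read, and the 5 muscle markers together stayed at or below 14.04 RPM in each library.

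Slc25a5 and Slc25a3 were the most abundant of the set. Since 1 read stands for 1 molecule, levels are given in RPM without division by length. Slc25a5 stood at 738 ± 86 RPM (SD over 8 libraries), with libraries from 603 to 866, and Slc25a3 at 653 ± 57, with libraries from 575 to 735, so that the ranges of these 2 overlapped. Vdac2 at 391 ± 32 and Vdac1 at 366 ± 53 formed a lower pair whose libraries, 332 to 428 and 308 to 455, also overlapped. Slc25a4 at 189 ± 35 and Vdac3 at 184 ± 24 came last, again with overlapping libraries of 129 to 238 and 151 to 231. No library of a lower pair reached any library of the pair above it. Within the adenine nucleotide carriers, Slc25a4 supplied 17.5% ± 0.3 of reads in DMSO 24 h, 16.7% ± 3.1 in MHY 24 h, 22.7% ± 3.4 in DMSO 48 h and 25.4% ± 4.0 in MHY 48 h (SD, n = 2 libraries). The libraries of 24 h, at 14.5 to 18.9%, all lay below those of 48 h, at 20.3 to 28.2%, a difference that was not tested and in which time and run cannot be told apart. Over 8 libraries, among the channels Vdac2 supplied 41.6% ± 2.6, Vdac1 38.8% ± 3.8 and Vdac3 19.6% ± 3.0. At the depth used, this is 29 to 75 reads of Slc25a4 and 27 to 72 of Vdac3 per library, against 137 to 239 of Slc25a5.

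Vdac1 and Slc25a3 carried the longest tails, with medians over pooled reads of 110.2 and 105.7 nt, against 98.7 nt for all mRNA reads. Slc25a5 and Slc25a4 carried the shortest, 80.6 and 87.0 nt, and Vdac2 and Vdac3 lay near the whole set at 98.9 and 100.1 nt. Among 936 genes with at least 300 reads, 25 had a shorter median than Slc25a5, 96 a shorter one than Slc25a4, and 815 a shorter one than Vdac1.

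**Figure D1:**
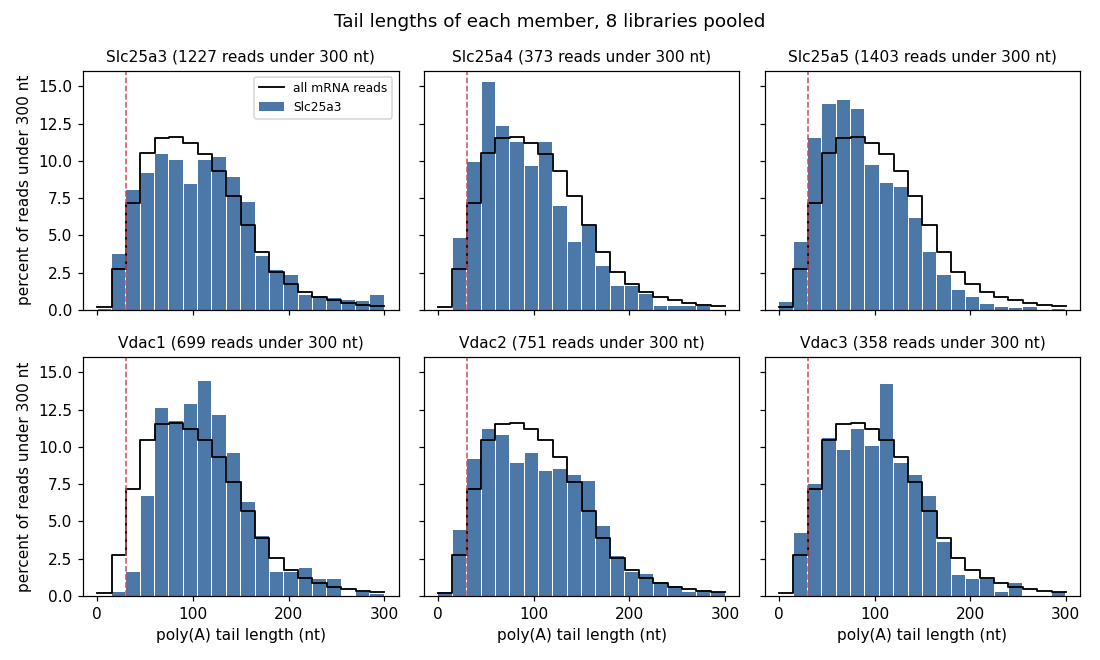
Distribution of poly(A) tail length for each member (bars, 8 libraries pooled) and for all mRNA reads (black line), as the percent of reads under 300 nt per 15-nt bin. The dashed line marks 30 nt. Slc25a5 and Slc25a4 are shifted to shorter tails, and Vdac1 is nearly empty left of the line, with 2 of 702 reads.

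For Slc25a5, the median tails were 81.8 and 88.3 nt in the DMSO 24 h libraries, 74.8 and 74.3 in MHY 24 h, 86.3 and 78.04 in DMSO 48 h and 81.1 and 79.0 in MHY 48 h. All 8 lay below the median of the other reads of the same library, with a mean difference of -18.5 ± 6.2 nt (SD of the 8 differences; two-sided exact sign-flip permutation test, p = 0.00781, the smallest that 8 libraries can give, adjusted p = 0.0234 over 18 comparisons). The share of Slc25a5 tails of 30 to 90 nt was 52.8% ± 4.8 against 40.4% ± 1.8 in the other reads, higher in 8 of 8 libraries (adjusted exact p = 0.0234). Slc25a5 was thus richer in mid-length tails in every library.

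For Slc25a4, the other adenine nucleotide carrier, medians were 87.2 and 79.6 nt in DMSO 24 h, 83.3 and 86.8 in MHY 24 h, 102.7 and 77.8 in DMSO 48 h and 76.2 and 98.8 in MHY 48 h. They were below the other reads in 6 of 8 libraries, with a mean difference of -12.4 ± 10.3 nt that missed the threshold after adjustment (exact p = 0.0313, adjusted p = 0.0563). The 2 libraries above the rest were DMSO 48 h library 24 and MHY 48 h library 25. Slc25a4 and Slc25a5 were not separated from each other, with a mean difference of 6.08 ± 10.2 nt over the 8 libraries (adjusted exact p = 0.171 over 15 pairs).

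For Slc25a3, medians were 105.7 and 110.7 nt in DMSO 24 h, 100.5 and 105.0 in MHY 24 h, 106.9 and 107.4 in DMSO 48 h and 98.4 and 112.0 in MHY 48 h. All were above the other reads of their library, by 6.91 ± 4.15 nt (adjusted exact p = 0.0234). The phosphate carrier therefore had longer tails than both nucleotide carriers in 8 of 8 libraries, by 25.4 ± 5.4 nt over Slc25a5 and by 19.3 ± 8.7 nt over Slc25a4 (adjusted exact p = 0.0234 for each).

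For Vdac1, medians were 107.0 and 115.7 nt in DMSO 24 h, 105.3 and 113.7 in MHY 24 h, 106.6 and 106.0 in DMSO 48 h and 109.9 and 119.2 in MHY 48 h. These exceeded the other reads in 8 of 8 libraries, by 11.5 ± 5.6 nt (adjusted exact p = 0.0234). Vdac2 medians ran from 89.8 to 107.6 nt and Vdac3 medians from 76.6 to 110.5 nt, on both sides of the other reads, with mean differences of -0.94 ± 6.18 nt (adjusted exact p = 0.747) and 0.14 ± 9.91 nt (adjusted exact p = 0.977). Of the 3 channels, Vdac1 alone passed this test.

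**Figure D2:**
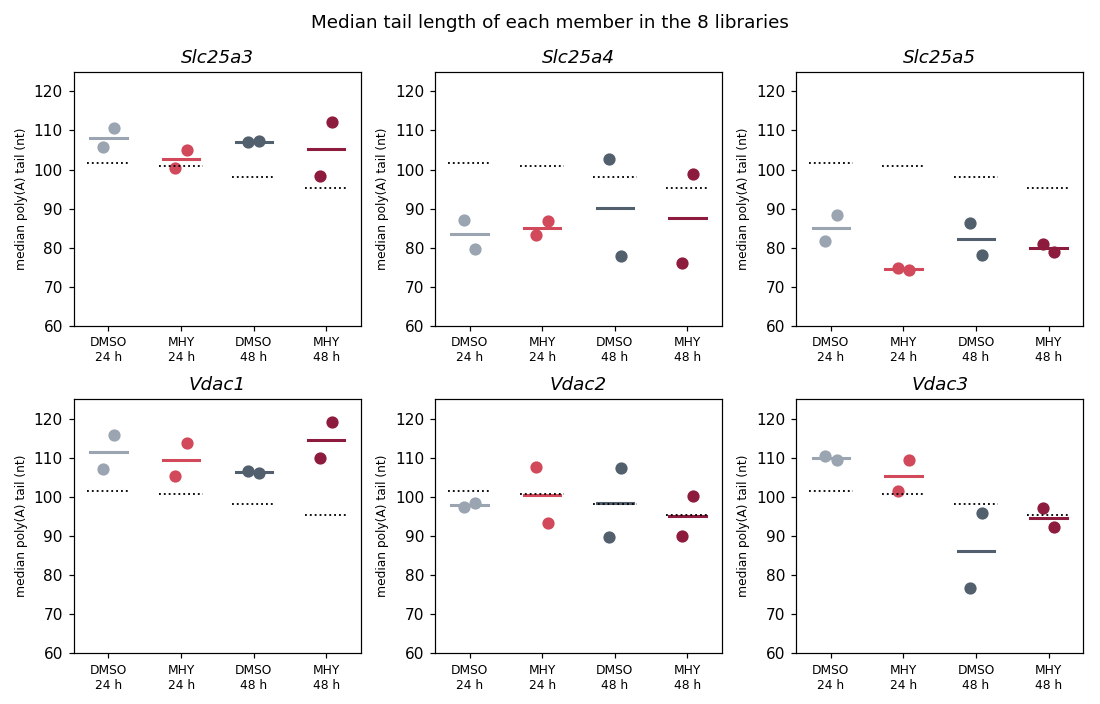
Median poly(A) tail length (nt) of each member in each library (points), with the group mean (coloured line, 2 libraries per group) and the mean of the library medians of all mRNA reads (dotted line). The axis starts at 60 nt. Vdac1 points lie above the dotted lines in all groups and Slc25a5 points below them, while replicates of Slc25a4 at 48 h and of Vdac3 in DMSO 48 h lie far apart.

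Vdac1 had very few short tails. Only 2 of its 702 reads were shorter than 30 nt, 0.285% (Wilson 95% interval 0.0782 to 1.03%, counting error only), against 2.92% of all mRNA reads. In 6 libraries there were 0 such reads, and 1 read each was found in MHY 24 h library 21 (of 91 reads) and DMSO 48 h library 25 (of 131 reads). A count of 0 allows a share of up to 3% in MHY 48 h library 24, with 100 reads, and up to 4.76% in MHY 24 h library 23, with 63, so that single libraries could not show the low share and it rests on the 8 together. The share was below that of the other reads in 8 of 8 libraries, with a mean difference of -2.61 ± 1.01 percentage points (adjusted exact p = 0.0234), and its share of 30 to 90-nt tails was also lower in all 8, with a mean difference of -8.03 ± 4.65 points (adjusted exact p = 0.0234). The 5th percentile of its tails was 54.0 nt, against 35.5 nt for all reads. Among the 936 genes, 8 had a lower share under 30 nt. Outside these counts, 7 Vdac1 alignments carried the tag for no tail region.

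The other 5 members held between 3.77% (Slc25a3) and 5.04% (Slc25a5) of tails under 30 nt over pooled reads. The differences from the other reads did not pass the test after adjustment, with adjusted exact p = 0.0527 for both Slc25a3 and Slc25a5 and 0.129 for Vdac2. Vdac2, similar to Vdac1 in read number, had 35 such tails among 755 reads, and the difference between these genes in this class was not tested. The 2 short Vdac1 reads came from 2 of the 5 runs.

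Of the 15 pairs of members, 8 differed in median tail with an adjusted exact p under the threshold of 0.05. In 5 of these the call was kept in all 13 alternative settings, namely Slc25a3 against Slc25a4 and Slc25a5, Vdac1 against Slc25a4 and Slc25a5, and Vdac2 against Slc25a5. The mean differences from Vdac1 were -29.98 ± 6.77 nt for Slc25a5 and -23.9 ± 10.03 nt for Slc25a4, and that of Slc25a5 from Vdac2 was -17.6 ± 10.1 nt, each in the same direction in 8 of 8 libraries (adjusted exact p = 0.0234 for each). The remaining calls, Slc25a3 less Vdac2 (7.84 nt), Slc25a5 less Vdac3 (-18.6 nt) and Vdac1 less Vdac3 (11.4 nt), were lost in 9, 9 and 10 of the 13 settings. Among the channels, Vdac1 exceeded Vdac2 by 12.4 ± 9.4 nt in 6 of 8 libraries (adjusted exact p = 0.0521).

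The whole tail profile was compared with those of 231 genes with at least 100 reads in each library, using the largest difference between cumulative distributions, averaged over the 8 libraries, as the measure of likeness. Among the profiles nearest to Slc25a5 were those of the ribosomal protein genes Rpl27 (0.0757) and Rpl7a (0.0759), and those nearest to Slc25a4 were Rpl13a (0.114), Rpl27 (0.116) and Rpl27a (0.120). Vdac1 was nearest to the glycolytic enzyme genes Pkm (0.0771) and Eno1 (0.0787) and to Pfn1 (0.0804), which encodes an actin-binding protein. Slc25a3 was nearest to Cox7c (0.0783), a subunit of cytochrome c oxidase, and to Rpl10 and Rpl15 (0.0784 and 0.0789). Vdac2 was nearest to Ubb, Sumo2 and Rpl15 (0.0830 to 0.0882) and Vdac3 to H2az1, Rpl15 and Snrpn (0.106 to 0.116). Ribosomal protein genes were thus among the nearest of all members but Vdac1, and their share of the 231 genes was not measured. The median over all genes ranged from 0.128 for Slc25a3 to 0.170 for Slc25a4. Slc25a4 and Vdac3 had the fewest reads per library and the largest nearest distances of the 6.

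All Slc25a4, Slc25a5 and Vdac1 reads fell on 1 transcript each, and Vdac2 on 1 with 98.9% of reads. Slc25a3 had 6.57% of reads on a transcript annotated for nonsense-mediated decay, but 80 of those 82 reads had a mapping quality of 0, so their transcript is uncertain. Vdac3 was split over 2 overlapping protein-coding transcripts with 78.6% and 21.4% of reads and medians of 101.7 and 89.4 nt, and only 35 of 282 and 36 of 77 reads reached a mapping quality of 10. Where a member had several 3′ ends, no difference in tail between them passed the test. In Vdac2 the pooled medians were 97.0, 104.1 and 86.8 nt at the proximal, middle and distal ends, and both differences from the proximal end had an adjusted exact p of 0.711. In Slc25a4 they were 88.9, 87.4 and 83.3 nt at the proximal, middle and distal ends, and both differences from the distal end also had an adjusted exact p of 0.711 (4 comparisons over 8 libraries). The fewest reads at a compared end were 6 in a library for Vdac2 and 2 for Slc25a4, so these comparisons were coarse.

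Treatment with MHY1485 was compared with DMSO at each time by limma over all genes. For read number, none of the 6 members passed the threshold at 24 h, where 3 of 4116 genes did (0.0729%), and none at 48 h, where 65 did (1.58%; 17 higher and 48 lower, or 32 and 28 with scaling by the total of reads). Without MHY 48 h library 24, 16 genes passed at 48 h, and without DMSO 48 h library 25, 17. At an unadjusted p under 0.05 the count was 0 of 6 members at 24 h, beside 177 of 4116 genes, and 2 of 6 at 48 h, beside 511 of 4116 genes. limma trend, which was also run, called 0 of 6 at both times. Since bulk RNA was measured, fewer cells of a kind and less RNA per cell cannot be told apart.

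At 24 h the log2 fold changes of read number ranged from -0.21 (Slc25a4, SE 0.26) to 0.01 (Vdac1, SE 0.19). Over the alternative settings the former ran from -0.47 to 0.11 and the latter from -0.28 to 0.25. For Slc25a3, the normalised read numbers were 700 and 688 RPM in DMSO and 675 and 612 in MHY, so that the MHY values were all the lower ones. The same held for Vdac3, with 180 and 198 against 178 and 154, and such an order was seen in 16.9% of all genes tested. The interval for Slc25a3 ran from -0.43 to 0.22 on the log2 scale, and changes of about that size in either direction were not detectable.

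At 48 h, 5 of 6 members had estimates below 0. For Vdac1, the normalised read numbers were 344 and 415 RPM in DMSO 48 h and 288 and 294 in MHY 48 h, and for Slc25a5 they were 739 and 706 against 541 and 611. For Vdac2 they were 413 and 412 against 331 and 316. In these 3 members the MHY values did not overlap those of DMSO and were lower, which was seen in 20.8% of all genes. The log2 fold changes were -0.39 for Vdac1 (SE 0.18, adjusted p = 0.355 by limma), -0.33 for Slc25a5 (SE 0.16, adjusted p = 0.355) and -0.34 for Vdac2 (SE 0.18, adjusted p = 0.421).

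These 3 estimates stayed below 0 in all 17 alternative settings, with no adjusted p under 0.217, while scaling by the total of reads moved the median of all genes from -0.01 to 0.10 and gave -0.29, -0.23 and -0.24. The Vdac1 value was -0.24 without DMSO 48 h library 25 and -0.51 without DMSO 48 h library 24. Within the 2 runs of 48 h, the log2 ratio of MHY to DMSO was 0.04 and -0.50 for Vdac1, -0.47 and -0.04 for Slc25a5 and -0.22 and -0.23 for Vdac2. Of these 3, Vdac2 had about the same ratio in both runs. Slc25a3 had a log2 fold change of -0.23 (SE 0.16), Slc25a4 of -0.12 (SE 0.22) and Vdac3 of 0.14 (SE 0.23). The Slc25a3 value moved to -0.09 without MHY 48 h library 24, to -0.11 without DMSO 48 h library 24 and to -0.36 without DMSO 48 h library 25. For Slc25a4 it was 0.07 without DMSO 48 h library 25, -0.02 without MHY 48 h library 25 and -0.26 with either DMSO or MHY 48 h library 24 left out. The Vdac3 value was -0.09 with only its most-read transcript and 1.58 with reads of mapping quality 10 or more, so that its direction differed between these settings. The change from 24 to 48 h in the MHY effect on read number was tested too, with no adjusted p under 0.830 for any member.

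**Figure D3:**
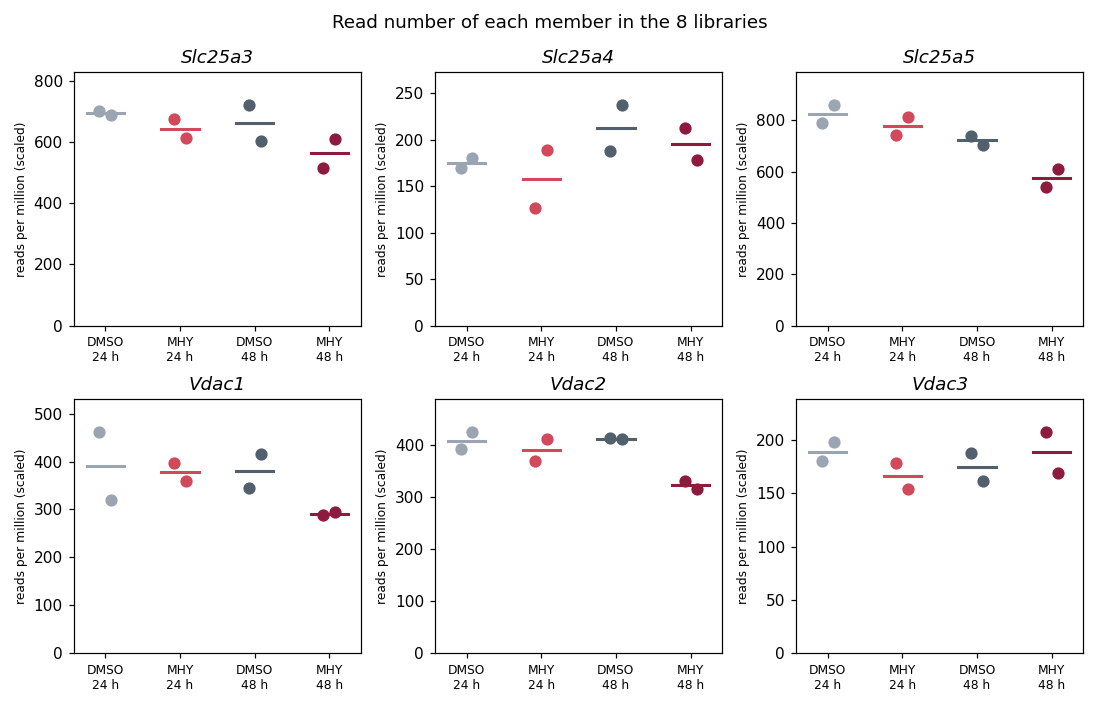
Normalised read number (RPM after median-of-ratios scaling, axis from 0) of each member in each library (points), with the group mean (line, 2 libraries per group). In Vdac1, Vdac2 and Slc25a5 both MHY 48 h points lie below both DMSO 48 h points.

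Median tails of the members did not change detectably with MHY. None of 6 passed at 24 h, where 0 of 1949 genes did (0%; 77 genes and 1 member at an unadjusted p under 0.05), and none at 48 h, where 17 genes did (0.872%, all shorter; 163 genes and 0 members at an unadjusted p under 0.05). Without MHY 48 h library 24, or without DMSO 48 h library 25, 0 genes passed at 48 h (105 and 95 at an unadjusted p under 0.05). The largest shift was that of Slc25a5 at 24 h, from 81.8 and 88.3 nt in DMSO to 74.8 and 74.3 nt in MHY, an estimate of -11.3 nt (95% interval -22.2 to -0.41, adjusted p = 0.996 by limma). It had the same sign in the 3 runs of 24 h, at -16.6, -8.75 and -2.44 nt, and at 48 h it was -1.29 nt (interval -12.1 to 9.51). The difference between these effects was 10.0 nt (SE 7.6, adjusted p = 0.999).

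Both MHY libraries had shorter medians than both DMSO libraries in 3 of 6 members at 24 h (Slc25a3, Slc25a5 and Vdac3) against 17.9% of all genes, and in 0 of 6 at 48 h against 21.8%. At 48 h the median estimate over all genes was -3.02 nt, and the members ranged from -6.13 nt (Vdac2, interval -21.0 to 8.77) to 8.20 nt (Vdac3, interval -12.0 to 28.4). Vdac1 tails were 106.6 and 106.0 nt in DMSO 48 h and 109.9 and 119.2 nt in MHY 48 h, both above, as in 12% of all genes, with an estimate of 7.35 nt (interval -7.55 to 22.3, adjusted p = 0.896). Over the alternative settings in which they were tested, these 48 h estimates ran from -13.3 to 4.22 nt for Vdac2, from -0.39 to 18.9 nt for Vdac3 and from 3.05 to 12.9 nt for Vdac1, and that of Slc25a5 at 24 h from -13.8 to -7.29 nt. Shifts smaller than the fitted intervals could not be seen.

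**Figure D4:**
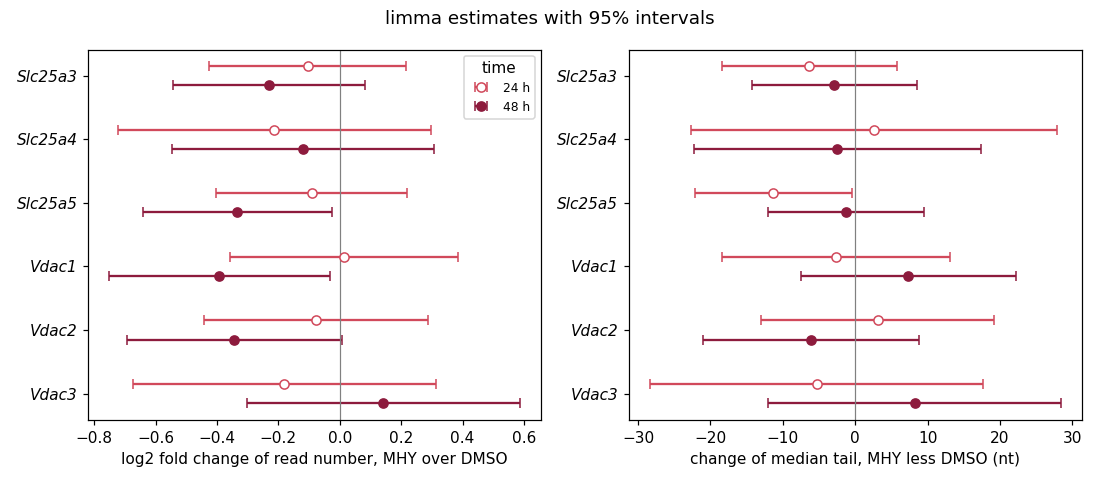
limma estimates of the MHY effect on read number (left, log2 fold change) and on median tail length (right, nt) for each member at 24 h (open) and 48 h (filled), with 95% intervals. No estimate passed the adjusted threshold, and only Vdac1 and Slc25a5 reads at 48 h and the Slc25a5 tail at 24 h have intervals that leave out 0.

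For tails under 30 nt, 0 of 6 members passed at 24 h, where 0 of 1949 genes did (0%; 110 genes and 0 members at an unadjusted p under 0.05), and 0 of 6 at 48 h, where 7 genes did (0.359%, all higher; 207 genes and 0 members at an unadjusted p under 0.05). In the library with the highest share over all reads, MHY 48 h library 24 (4.46%), 7 of 74 Slc25a4 tails were under 30 nt, against 1 of 40 in MHY 48 h library 25 and 1 of 41 and 1 of 75 in DMSO 48 h. The estimate for Slc25a4 was 1.61 on the scale of log2 odds (SE 0.83, adjusted p = 0.567 by limma). Vdac1 had 0 short tails in DMSO 24 h, 1 in MHY 24 h, 1 in DMSO 48 h and 0 in MHY 48 h, so that no change with MHY could be measured for it.

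For tails of 30 to 90 nt, 0 of 6 members passed at 24 h against 0 of 1949 genes (0%; 95 genes and 0 members at an unadjusted p under 0.05) and 0 of 6 at 48 h against 5 genes (0.257%, all higher; 120 genes and 0 members at an unadjusted p under 0.05). Slc25a5 went from 49.9% ± 5.4 in DMSO to 56.2% ± 4.2 in MHY at 24 h and from 54.0% ± 7.9 to 51.1% ± 2.1 at 48 h (SD, n = 2 libraries). These values overlapped at both times. The MHY values did not overlap those of DMSO and were higher in 2 of 6 members at 24 h, Slc25a3 with 33.9% ± 3.5 and 40.1% ± 2.8 in DMSO and MHY and Vdac3 with 31.1% ± 2.3 and 38.0% ± 1.4, and in 1 of 6 at 48 h, Slc25a3 with 36.1% ± 2.5 and 39.5% ± 1.1. Such an order was seen in 17.9% of all genes at 24 h and in 17.6% at 48 h. At 24 h 5 of 6 estimates were above 0, with a median of 0.40 log2 odds against 0.05 over all genes, and at 48 h 2 of 6 were, with a median of -0.13 against 0.05. The lowest adjusted p among members was 0.979 at 24 h and 0.974 at 48 h by limma.

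Between the DMSO groups, 48 h was compared with 24 h. No member passed for read number, where 0 of 4116 genes did (0%), nor for the median tail, the share under 30 nt or the share of 30 to 90 nt, where 0 of 1949 genes did each time (0%). At an unadjusted p under 0.05 the counts were 175, 124, 101 and 140 genes in that order, by limma, and 1 member in all. That member was Vdac3, with median tails of 110.5 and 109.5 nt in DMSO 24 h and 76.6 and 95.9 nt in DMSO 48 h, an estimate of -22.6 nt (interval -43.9 to -1.34, adjusted p = 0.780). No run held reads of both groups.

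The choice of 3′ end of Vdac2 was compared between treatments after its 3 ends had been seen. The distal end was used by 17.6% and 14.5% of Vdac2 reads in DMSO 24 h, 10.6% and 8.57% in MHY 24 h, 11.2% and 12.5% in DMSO 48 h and 7.89% and 8.57% in MHY 48 h. At both times the MHY values were lower than those of DMSO without overlap, on 6 to 17 reads per library. The proximal end took 52.7% and 57.3% in DMSO 24 h, 62.4% and 65.7% in MHY 24 h, 68.5% and 62.5% in DMSO 48 h and 75.4% and 70.0% in MHY 48 h, and here MHY lay above DMSO at both times. For both ends, the share of other genes with several ends that show such an order was not measured.

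Averaged over the times, the difference of MHY from DMSO was -5.05 points for the distal share and 8.12 points for the proximal share. An exact permutation test within each time gave p = 0.0556 for both, which is the smallest this design can give, and 0.167 after adjustment over the 6 ends of Vdac2 and Slc25a4. At a barcode confidence of at least 0.9 the proximal end had an exact p of 0.111 and both ends 0.333 after adjustment. For Slc25a4 the distal share was 61.4% ± 10.4 in DMSO 24 h, 58.1% ± 0.7 in MHY 24 h, 66.7% ± 5.7 in DMSO 48 h and 49.5% ± 6.4 in MHY 48 h (SD, n = 2; adjusted exact p = 0.333). In the other members the single end was used by more than 92% of reads in the mean of each group.

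**Figure D5:**
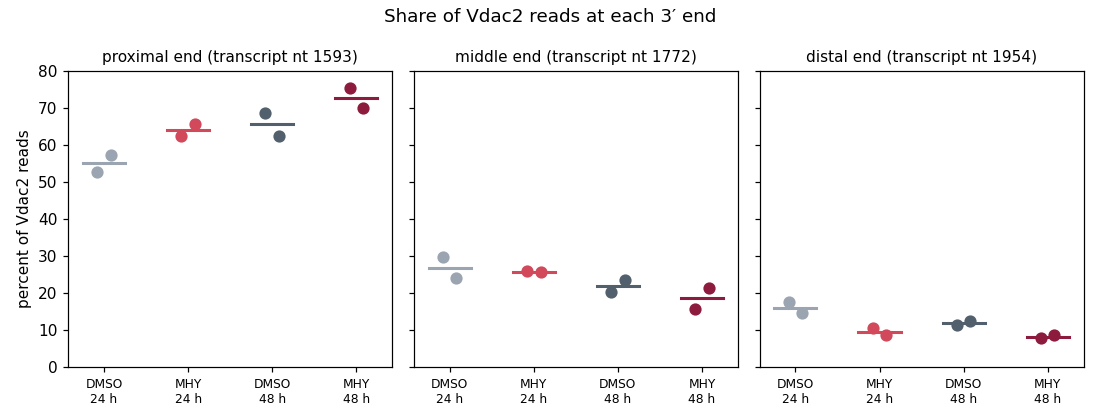
Percent of Vdac2 reads that ended at the proximal, middle and distal 3′ end in each library (points), with the group mean (line, 2 libraries per group, axis from 0). MHY points lie above DMSO points of the same time at the proximal end and below them at the distal end. Neither difference passed the threshold (exact permutation test within each time, adjusted p = 0.167).

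Of 47 further SLC25 family genes, 36 had reads and 13 could be tested for read number, and 1 of these passed in a comparison of MHY with DMSO. This was Slc25a1, the citrate carrier that exports citrate for lipid synthesis, which fell at 48 h, by 1.16 on the log2 scale (SE 0.30, adjusted p = 0.0171 by limma), from 142 ± 31 to 68.6 ± 15.3 RPM (SD, n = 2). The call was lost without DMSO 48 h library 24 (-0.98, adjusted p = 0.170), without MHY 48 h library 24 (-0.81, adjusted p = 0.738), with scaling by the total of reads (adjusted p = 0.051) and at a barcode confidence of 0.9 (adjusted p = 0.0755). The most-read other carriers were Slc25a39, which is linked to mitochondrial glutathione, with a log2 fold change of -0.52 at 48 h (SE 0.22, adjusted p = 0.266), and Mtch2, an outer-membrane relative of the carriers, with -0.04 (SE 0.21).

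Of 12 genes for outer-membrane import 11 were tested and 0 passed. Tomm20, the receptor for presequences, stood at 961 RPM, above all 6 members, with log2 fold changes of -0.23 (SE 0.15) at 24 h and -0.08 (SE 0.15) at 48 h, and Tomm7 at 553 with -0.20 (SE 0.17) and -0.03 (SE 0.16). Of 15 genes for the import of carriers into the inner membrane 13 were tested and 0 passed. Timm23, a channel subunit, had a median tail of 71.2 nt with 9.67% under 30 nt, and Timm13, a small chaperone that escorts hydrophobic proteins, 101.5 nt with 0.759%. Of 10 genes for pyruvate and calcium entry only 2 were tested, Smdt1 (0.23 at 48 h, SE 0.22) and Letm1 (0.34, SE 0.39). Of 15 partners of VDAC and ANT 8 were tested and 0 passed. Hspa9, the matrix chaperone, had 0.33 at 48 h (SE 0.18, adjusted p = 0.441) and the pore-forming Bax -0.07 (SE 0.22). The median log2 fold change at 48 h was -0.28 over the 6 members, -0.12 over the tested SLC25 genes, -0.03 over outer-membrane import, 0.07 over carrier import, 0.09 over the partners of VDAC and ANT, 0.29 over the 2 tested genes for pyruvate and calcium entry and -0.01 over all genes.

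Of the 7 pluripotency markers tested, Tdgf1 alone passed for read number at 48 h, where it fell by 0.99 on the log2 scale (SE 0.21, adjusted p = 0.000795 by limma). The call was lost without DMSO 48 h library 25 (adjusted p = 0.184) and without MHY 48 h library 24 (adjusted p = 0.589). The summed level of that list was 3711 to 3898 RPM in DMSO 48 h and 3476 to 3858 in MHY 48 h, and that of the neuron list 281 to 314 and 220 to 238, with the read number of Stmn2 at -0.66 (SE 0.22, adjusted p = 0.0928) and Tubb3 at 0.54 (SE 0.45, adjusted p = 0.669). The endoderm list lay at 183 to 205 in DMSO 48 h and 210 to 250 in MHY 48 h, and nearly all of its reads were those of Sparc (408 over the 8 libraries). Sparc was the only gene of this list tested, with a log2 fold change of 0.13 that did not pass. The summed levels carry no median-of-ratios scaling, and their shifts were not tested. The part of these shifts in the read numbers of the members was not tested.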

How the data were processed

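Base calling by the authors used Guppy, alignment used minimap2 2.20 on GENCODE vM17 transcripts (mm10), tail lengths came from Nanopolish, and libraries were told apart by Deeplexicon barcodes. The deposited table lists 1 alignment per line with a tail length in nt. The deposited barcode confidence is a fraction, and the deposited mapping quality is a score. Alignments tagged PASS (2027638 of 2439710) of class mRNA were kept once per read and transcript, and 66955 mitochondrial and 12169 pseudogene alignments were set aside. Groups came from the labels, libraries from the table's replicate names and runs from its column headed sample.

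Reads were counted per gene and library. Read numbers (at least 10 reads in 2 libraries, median-of-ratios scaling, limma voom), median tails and the log2 odds of tail classes (0.5 read added, at least 10 reads in each library, weighted by reads) were fitted with limma 3.58.1 in R 4.3.3 over all 8 libraries, with Benjamini-Hochberg adjustment. Gene-wise comparisons within libraries used two-sided exact sign-flip tests. Scripts were tested on simulated data. p-values reflect the spread between these samples, and intervals on shares cover counting error only.

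Named genes were the 6 members, the 2 most-read genes of each list plus any that passed, and the 3 nearest tail profiles of each member, of which 1 is not reported here. Nanog, Map2, Snap25, Gata4, Myod1 and the marker genes without a read were named after their values were seen. The members and lists were chosen with earlier results of these data known. The comparison of members with other reads and the 3′ ends were added after the data were seen. Alternatives were mapping quality, barcode confidence, counting, transcripts, scaling, filters, weights, class bounds, a replicate block and each library left out.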

Additional observations from a re-analysis of the deposited data

Results flagged for a closer look

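Alignments of the 6 members that did not carry the PASS tag were outside all comparisons, and there were 842 of them among 5690 (14.8%, against 15.5% of all mRNA alignments). They were pointed out because they hold signal in data that no comparison used. Among alignments of any tag with a length above 0, tails under 30 nt made up 3 of 811 for Vdac1 (0.370%) and 91 of 1668 for Slc25a5 (5.46%). This leaves out the Vdac1 alignments with no length above 0: 7 carried the tag for no tail region and 8 the tag for a read that failed to load. The tag for no tail region was carried by 7 of 826 Vdac1, 7 of 1471 Slc25a3, 6 of 1689 Slc25a5, 4 of 877 Vdac2 and 1 of 404 Vdac3 alignments. Whether these molecules had very short tails was not tested. Groups of 2 libraries are too small for the test of a single distant sample.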

How the results depend on the processing

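No member passed the threshold in read number, median tail or either tail class, at 24 h or 48 h, under any alternative in which it was tested, where the lowest adjusted p was 0.180 (read number, 48 h). The 8 pairs of members with different medians became 5 at a mapping quality of at least 10, 5 at a barcode confidence of at least 0.9 and 5 with only the most-read transcript, and 5 to 10 with one library left out. The 6 differences between members and the other reads became 10 at a mapping quality of at least 10, and those 6 calls were kept in all 12 alternatives. Deviations of same-numbered libraries correlated at 0.01 (24 h) and 0.09 (48 h) over 759 genes for reads. Counting noise lowers such a correlation, so this cannot tell whether replicate numbers pair the libraries. A replicate block called 0 of 6 members in each comparison, with a lowest adjusted p of 0.325 by limma. Over all genes at 48 h it called 79 for read number and 17 for tails under 30 nt. Vdac1, Vdac2 and Slc25a5 reads at 48 h kept their sign in all 17 alternatives, while over all members, for each measure and time, 3 to 9 of 99 or 102 values changed sign. Tails of Slc25a4 and Vdac3 could not be tested at 30 reads in each library, nor those of Vdac3 at a mapping quality of at least 10. Genes passing at 48 h ranged from 16 to 147 for read number (65 as reported, 31 by limma trend) from 0 to 41 for median tail (17 as reported), from 0 to 17 for tails under 30 nt (7 as reported) and from 0 to 36 for tails of 30 to 90 nt (5 as reported), with all 4 lower values reached without MHY 48 h library 24, and the cause was not tested. With at most 75 reads in a library, Slc25a4 and Vdac3 are limited by depth.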
